A study of Mus musculus with 8 samples.

Results

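The genes described here are 9 integrin chains of T cells of the gut mucosa, Itgae, Itgb7, Itga4, Itgb8, Itgb3, Itgb1, Itgav, Itgal and Itgb2, taken by name out of 31053 genes in the count tables, which hold 26 integrin chain genes in all. Itgae and Itgb3 were chosen by their log2 fold changes in wildtype cells after dextran sulfate sodium (DSS) against untreated wildtype cells. All 9 passed the filter on low counts in CD4 T cells. Droplet single-cell RNA sequencing counted molecules by unique molecular identifiers (UMIs) at the 3' ends of transcripts, in CD4-enriched cells of the mouse colonic lamina propria, the tissue layer under the epithelium. The labels give C57BL/6 mice aged 10 to 12 weeks. They were wildtype or carried a knock-in allele, the mutants here, named S203A in the sample titles and S182A of RORgt in the series title. RORgt is the transcription factor of Th17 cells and group 3 innate lymphoid cells. Mice stayed untreated on water, or drank 2% DSS for 7 days followed by 3 days of water, and all were taken on day 10. DSS injures the colonic epithelium. Each genotype had 2 untreated and 2 DSS-treated libraries, so there were 4 groups of 2, whose replicate numbers only name them.

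Integrins are receptors made of an alpha and a beta chain that hold cells to matrix and to other cells. Itgae encodes the alpha E chain (CD103), which pairs with the beta 7 chain from Itgb7 and binds E-cadherin on epithelium. Itgb7 also pairs with the alpha 4 chain from Itga4 to bind MAdCAM-1 on gut vessels, and alpha 4 with the beta 1 chain from Itgb1 binds VCAM-1. Itgav encodes alpha v, whose partners include the products of Itgb1, Itgb3 and Itgb8. Alpha v beta 8 releases active TGF-beta from its latent complex, and TGF-beta is a known inducer of Itgae. Itgal and Itgb2 encode the chains of LFA-1, which binds ICAM-1 and is found on most leukocytes.

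On GRCm38, Itgae lies at chr11:73090583-73147446 on the forward strand. Haspin, a kinase gene, lies inside it on the opposite strand, and its counts are given beside those of Itgae. Itgb3 lies on the same chromosome at chr11:104608000-104670476. Itga4 and Itgav lie on chromosome 2 at chr2:79255426-79333123 and chr2:83724397-83806916. Itgb8 lies at chr12:119158022-119238802 and Itgb7 at chr15:102215995-102231944, both on the reverse strand. Itgal lies at chr7:127296260-127335138, Itgb1 at chr8:128685654-128733200 and Itgb2 at chr10:77530252-77565708. Promoter sequences from RefSeq (GRCm38.p6) matched 5 of the 9, Itga4, Itgav, Itgb1, Itgb8 and Itgb7, and the windows compared were the 250 bases before RefSeq's transcript start. RefSeq's start of Itgb8 lies within the gene span given above, which is from GENCODE, and all 250 bases of its window lie in the untranslated part of GENCODE's first exon, so it is not printed. The windows of Itga4 and Itgav, whose CD4 T cell levels were apart between treatments, and of Itgb7, whose levels overlapped, are shown. Capitals mark the RUNX core TGTGGT or its complement ACCACA. The stretches are chr2:79255176-79255425 (forward strand), chr2:83724147-83724396 (forward strand) and, without 9 bases that lie in an exon, chr15:102231945-102232185 (reverse strand).
Itga4: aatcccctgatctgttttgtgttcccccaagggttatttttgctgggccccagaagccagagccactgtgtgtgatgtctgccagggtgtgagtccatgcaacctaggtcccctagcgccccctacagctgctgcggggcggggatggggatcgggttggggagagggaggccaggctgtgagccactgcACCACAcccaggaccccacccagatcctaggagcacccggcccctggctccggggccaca
Itgav: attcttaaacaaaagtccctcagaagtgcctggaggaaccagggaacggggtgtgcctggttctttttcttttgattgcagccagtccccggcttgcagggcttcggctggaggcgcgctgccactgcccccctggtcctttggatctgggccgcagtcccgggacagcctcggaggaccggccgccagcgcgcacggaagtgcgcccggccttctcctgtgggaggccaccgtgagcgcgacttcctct
Itgb7: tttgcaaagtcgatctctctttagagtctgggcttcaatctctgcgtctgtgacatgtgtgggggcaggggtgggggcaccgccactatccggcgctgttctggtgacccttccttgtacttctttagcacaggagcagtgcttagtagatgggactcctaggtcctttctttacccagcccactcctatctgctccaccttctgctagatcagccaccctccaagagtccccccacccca
The RUNX core was found once among the 5 windows, in Itga4, against 14.0% of 32851 windows of the same length. The SMAD palindrome GTCTAGAC (0.167% of all windows) and the AP-1 site TGACTCA (4.46%) were in none of the 5. All 3 motifs were searched on both strands, and none contains another. GC content of the 250-base windows was 64% for Itga4, 64.4% for Itgav, 68% for Itgb1, 56% for Itgb7 and 62.4% for Itgb8, against a median of 52.4% over all windows.

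The libraries held 10563 to 16133 barcodes and 34497509 to 46960005 UMIs, and no pair shared more than 64 barcodes. The CD4 T cells were 20731 cells of the authors' list in T cell clusters, 1780 to 3752 per library, with Cd3e at 289 to 392 CPM (UMIs of a gene per 1000000 UMIs of the population). Treg-like cells, 248 to 1050 per library, were 2 clusters led by Foxp3 and Il10 and by Il1rl1 and Klrg1. Integrin genes were left out of the clustering. Treg-like cells made up 11.6 to 16% of CD4 T cells in the untreated libraries and 21.7 to 28% after DSS. Both untreated mutant libraries had 6 heat shock genes at a summed 6049 and 4631 CPM in CD4 T cells, against 1234 to 2166 CPM in the other 6 libraries. In Treg-like cells the same sums were 4623 and 3317 CPM, against 1089 to 1756 CPM. These libraries are the untreated side of every mutant DSS comparison, and the part of heat shock in those results was not tested. Of 540 cells in a cluster with Hspa1a, Hspa1b and Svs5 among its 10 leading genes, 234 came from untreated mutant replicate 1. Igha, an antibody gene, reached 1596 and 1610.2 CPM in the CD4 T cells of DSS-treated wildtype replicate 2 and mutant replicate 1, against 281 to 593 CPM in the others.

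In CD4 T cells Itgae stood at 3.35 times its untreated mean after DSS and was higher in both genotypes. It was at 14.7 and 11.4 CPM in untreated wildtype libraries, 13.2 and 11.2 in untreated mutant ones, 42.2 and 48.4 in wildtype libraries after DSS and 40.1 and 38.5 CPM in mutant libraries after DSS. All 4 DSS libraries lay above all 4 untreated ones, and both wildtype DSS values were above both mutant DSS values. In the mutant Itgae rose by a log2 fold change of 1.61 ± 0.16 (SE), with an adjusted p of 0.00641 in edgeR's quasi-likelihood test over 11063 genes. In the wildtype the log2 fold change was 1.73 ± 0.16, given as a description. Results of all 8 libraries were known when the genes were chosen, so the mutant p is no independent support. Haspin stood at 6.93 to 9.04 CPM untreated and 7.24 to 9.88 CPM after DSS, in overlapping ranges. The mutant call was lost without untreated replicate 1 (log2 fold change 1.72). It held without the heat shock cluster (1.63, edgeR adjusted p = 0.00867). Leaving out that cluster does not remove the raised heat shock genes of the Treg-like cells, so the part of heat shock was not tested. The 10 dendritic cell markers, whose cells also carry Itgae, summed to 120.3 to 144 CPM untreated and 152 to 242 CPM after DSS in these CD4 T cells, 1 of the 10 was higher in every DSS library, and Clec9a was at 0. Their part in the result was not tested.

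**Figure D1:**
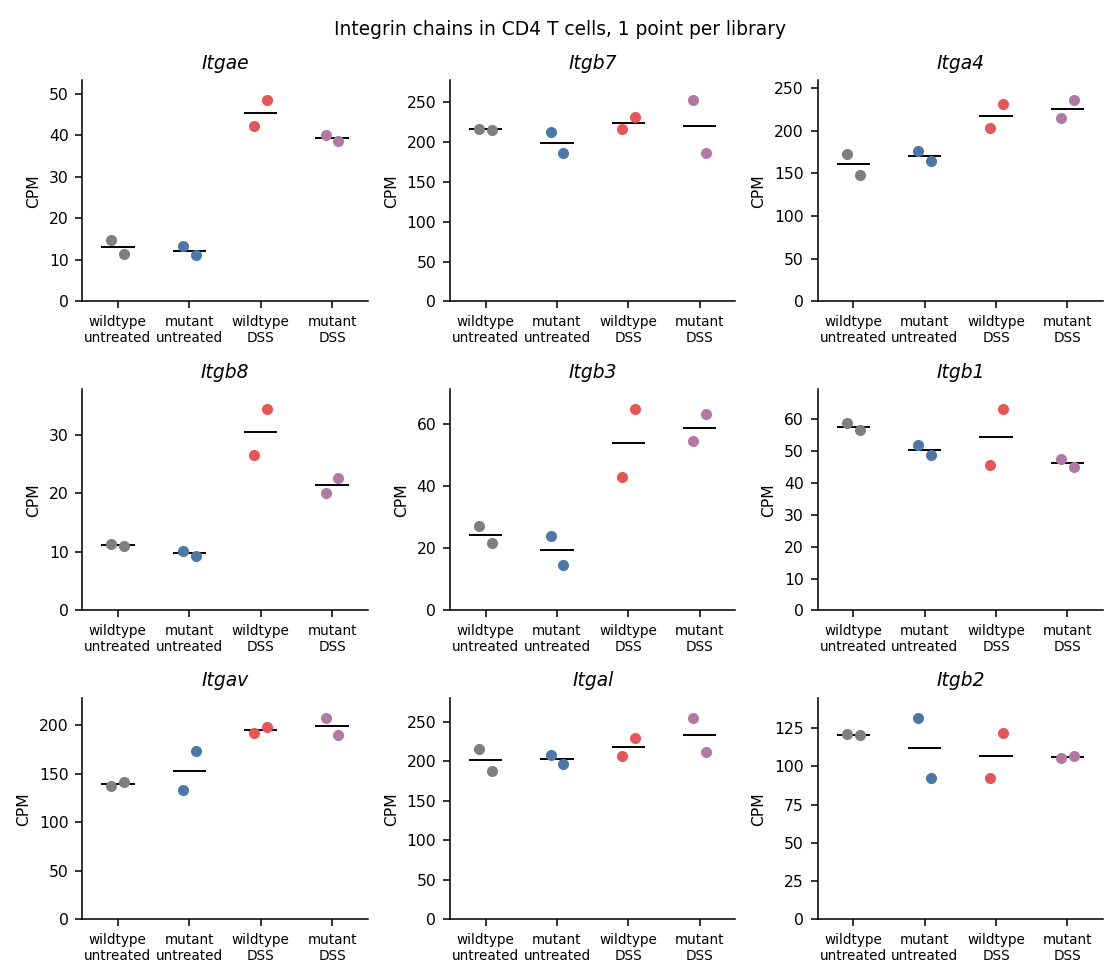
CPM of the 9 integrin chains in CD4 T cells (y axes from 0), with 1 point per library, 2 libraries per group and a line at the group mean. Itgae, Itgb8, Itgb3, Itga4 and Itgav have all 4 DSS libraries above all 4 untreated ones, and the other 4 genes do not.

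Of the 9 integrin chains, 3 were called in mutant CD4 T cells after DSS at an adjusted p under 0.05 (edgeR), all 3 higher, where 5.05% of all genes were called and 2.33% were called higher. Besides Itgae these were Itgb8 and Itgb3. Over the 9 the median log2 fold change was 0.29, against 0.01 over all genes tested. Results of all 8 libraries were known when the genes were chosen. So nothing is read from this count and median, or from mutant counts in the parts of the CD4 T cells that follow. In the wildtype 2 of 9 were called, Itgae and Itgb8, where 0.208% of all genes were, and nothing is read from this, since that contrast was in view when the genes were chosen. In 5 of 9, Itgae, Itga4, Itgb8, Itgb3 and Itgav, every DSS library was above every untreated library, as in 17.5% of all genes tested. These counts over 8 libraries include the wildtype ones by which Itgae and Itgb3 were chosen, so nothing is read from them here or in the populations that follow. In 0 of 9 was every DSS library below every untreated one, against 8.04% of all genes. In sums over cells such as these, more cells that express a gene and more RNA per cell cannot be told apart.

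Itgb8, whose product pairs with alpha v in an integrin that activates TGF-beta, was higher in CD4 T cells after DSS. It was at 11.3 and 11.1 CPM in untreated wildtype libraries, 10.2 and 9.34 in untreated mutant ones, 26.5 and 34.4 in wildtype libraries after DSS and 20.04 and 22.7 CPM in mutant libraries after DSS. The 4 DSS values were above the 4 untreated ones, and both wildtype DSS values were above both mutant DSS values. In the mutant Itgb8 rose by a log2 fold change of 1.05 ± 0.17 (SE; adjusted p = 0.0194 by edgeR), and the wildtype value was 1.37 ± 0.17. The mutant call was lost without untreated replicate 1 (adjusted p = 0.121), untreated replicate 2 (0.12) or DSS replicate 2 (0.0817), by edgeR.

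Itgb3, the beta 3 chain best known from platelets, where it pairs with the product of Itga2b, was at 27.1 and 21.6 CPM in untreated wildtype libraries, 24.1 and 14.6 in untreated mutant ones, 42.9 and 64.7 in wildtype libraries after DSS and 54.6 and 63.1 CPM in mutant libraries after DSS. The lowest DSS library was above the highest untreated one. In the mutant Itgb3 rose by a log2 fold change of 1.53 ± 0.24 (SE; adjusted p = 0.0178 by edgeR), and the wildtype value was 1.06 ± 0.24. The mutant call was lost without untreated replicate 1 (log2 fold change 1.91), untreated replicate 2 (1.23) or DSS replicate 2 (1.43), by edgeR. The 6 platelet markers summed to 3.47 to 8.9 CPM untreated and 4.8 to 23.3 CPM after DSS, and 1 of the 6 was higher in every DSS library. The sums after DSS were 4.8 and 23.3 CPM in wildtype libraries and 11.6 and 10.9 CPM in mutant ones. Among the 6 markers Gp9 had 0 UMIs and Itga2b at most 0.557 CPM in any library. The part of platelets in the result was not tested.

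The other 6 chains did not pass the test in the mutant. Itga4 stood at 148 to 176 CPM untreated and 202.7 to 236 CPM after DSS, ranges that did not overlap (mutant log2 fold change 0.33 ± 0.12, edgeR adjusted p = 0.117). Itgav stood at 133 to 173 CPM untreated and 190.5 to 207 CPM after DSS, also apart (0.29 ± 0.14, 0.205). Itgb7, the partner of both Itgae and Itga4, was at 186 to 217 CPM untreated and 187 to 252 CPM after DSS (0.06 ± 0.14, 0.818). The LFA-1 chains overlapped between treatments. Itgal was at 188 to 216 CPM untreated and 206 to 255 CPM after DSS (0.12 ± 0.13, 0.57), and Itgb2 at 92.5 to 131 CPM untreated and 92.6 to 121 CPM after DSS (-0.16 ± 0.16, 0.575). Itgb1 was at 48.8 to 58.8 CPM untreated and 45.2 to 63.2 CPM after DSS (-0.20 ± 0.14, 0.393).

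**Figure D2:**
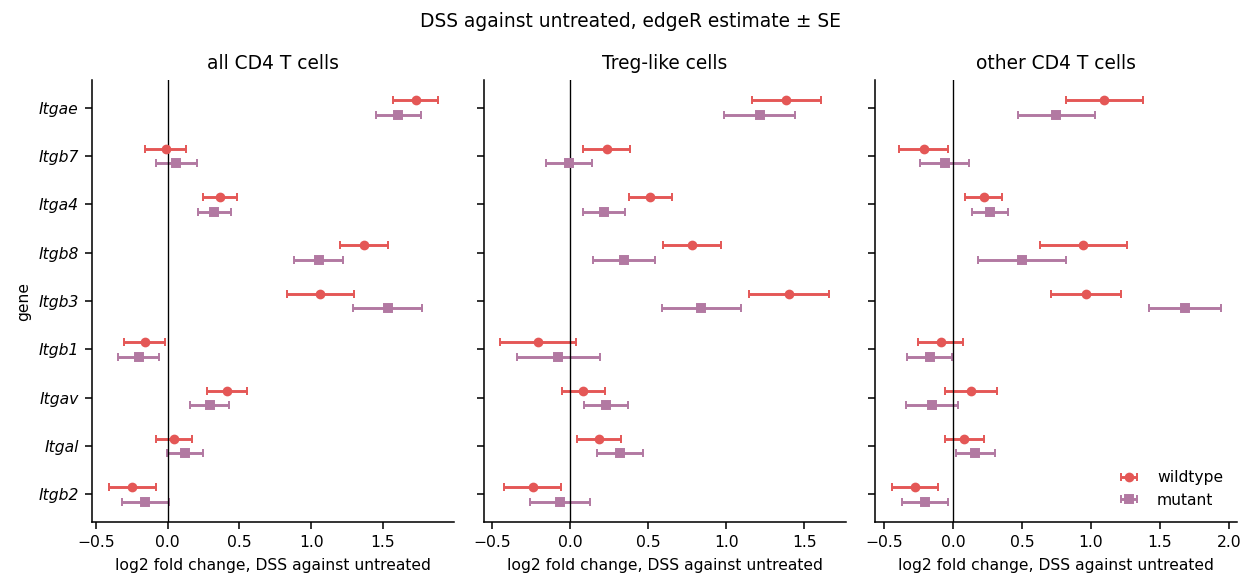
Log2 fold changes of DSS against untreated for the 9 chains in all CD4 T cells, Treg-like cells and CD4 T cells outside the Treg-like clusters, for 2 against 2 libraries in each genotype. Bars are SEs derived from edgeR's F statistic. Wildtype values are a description, and in the mutant Itgae was at 1.61, 1.22 and 0.75 in the 3 populations and Itgb3 at 1.53, 0.84 and 1.68.

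Treg-like cells held 1389 of the 1975 Itgae UMIs and 943 of the 1274 Itgb8 UMIs of all CD4 T cells. In Treg-like cells Itgae was at 47.7 and 41.7 CPM in untreated wildtype libraries, 36 and 61.8 in untreated mutant ones, 116 and 124 in wildtype libraries after DSS and 133 and 100.2 CPM in mutant libraries after DSS. Every DSS library was above every untreated library. In the mutant Itgae rose by a log2 fold change of 1.22 ± 0.23 (SE; adjusted p = 0.012 by edgeR), the 1 chain of 9 called in Treg-like cells, where 2.71% of 8235 genes were. The dendritic cell markers summed to 121 to 185 CPM untreated and 192 to 258 CPM after DSS in Treg-like cells, 1 of the 10 higher in every DSS library and Clec9a and Cd209a at 0, and their part was not tested. Without untreated mutant replicate 1 the value was 0.87 and the call was lost (edgeR adjusted p = 0.196). In the wildtype 2 chains were called, Itgae (1.39 ± 0.22) and Itgb3 (1.40 ± 0.26), where 0.583% of all genes were, and nothing is read from this.

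Itgb8 stood at 43.4 to 52.1 CPM untreated and 59.5 to 87.7 CPM after DSS in Treg-like cells, and its mutant log2 fold change of 0.35 ± 0.20 did not pass (edgeR adjusted p = 0.342). Itgb3 stood at 19.8 to 33.5 CPM untreated and 49.2 to 74.6 CPM after DSS (0.84 ± 0.25, 0.0842). Itgav stood at 311 to 391 CPM untreated and 402 to 441 CPM after DSS (0.23 ± 0.14, 0.366). In Treg-like cells 6 of the 9 chains, Itgae, Itga4, Itgb8, Itgb3, Itgav and Itgal, had every DSS library above every untreated one, as did 11% of all genes tested there.

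In the CD4 T cells outside the Treg-like clusters Itgae stood at 5.07 to 9.85 CPM untreated and 12.9 to 16.9 CPM after DSS, and the mutant log2 fold change of 0.75 ± 0.28 did not pass (edgeR adjusted p = 0.148). Itgb8 was there at 3.96 to 5.52 CPM untreated and 5.75 to 12 CPM after DSS. Itgb3 had like levels outside the Treg-like clusters, 12.7 to 27.4 CPM untreated and 40.7 to 63.6 CPM after DSS, and within them. In the mutant Itgb3 rose outside them by 1.68 ± 0.26 (log2, edgeR adjusted p = 0.0244), the 1 chain of 9 called, where 1.21% of 10632 genes were. That call was lost with only the 4 libraries compared (0.0528) and without each of 5 libraries in turn, untreated wildtype replicates 1 and 2 (0.0576 and 0.0606), untreated mutant replicates 1 and 2 (0.102 and 0.118) and DSS-treated mutant replicate 2 (0.0792), all edgeR adjusted p. In the wildtype 0 of 9 were called there (edgeR, DESeq2 1), where 0.0376% of all genes were.

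Among the named clusters outside the Treg-like ones, Th17-like cells had Itgb3 at 18.5 to 35.4 CPM untreated and 58.6 to 104 CPM after DSS and Itgae at 3.69 to 7.44 CPM untreated and 7.68 to 11.4 CPM after DSS, and these were the 2 of 8 chains tested with every DSS library above every untreated one, as in 9.63% of genes. Itgb2 stood at 89 to 119 CPM untreated and 79.2 to 87.5 CPM after DSS there, the 1 chain with every DSS library below every untreated one, as in 7.16% of genes. Tfh-like cells had Itgb3 at 2.57 to 6.87 CPM untreated and 10.3 to 21 CPM after DSS, the 1 such chain there, against 7.43% of genes. Proliferating-like cells had 4 of 9 chains above, against 9.05% of genes, with Itgae at 10.1 to 18.1 CPM untreated and 21.3 to 44 CPM after DSS, Itgb8 at 5.13 to 8.45 CPM untreated and 9.08 to 35.1 CPM after DSS, Itgb3 at 6.84 to 18.4 CPM untreated and 33.3 to 52.6 CPM after DSS and Itgav at 74.5 to 87.9 CPM untreated and 95.4 to 133 CPM after DSS. In naive or central memory-like cells 0 of the 7 chains tested were above, against 8.25% of genes. The unnamed cluster led by Gzmk and Ccl5 had 2 of 8 chains above, Itga4 and Itgb3, and 0 below. Averaged over genotypes, its 8 chains had a median log2 fold change of -0.16, against 0.01 over all genes. By edgeR 2 of the 8 were called higher and 1 lower there. The shares of all genes are not given for this cluster, so nothing is read from its counts. The values for these clusters are a description.

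Each library's level was also computed with the Treg-like share of UMIs held at the untreated mean of 13.4%. The ratio of the DSS mean to the untreated mean went from 3.35 to 2.26 for Itgae, from 2.47 to 1.62 for Itgb8 and from 1.35 to 1.07 for Itgav. For Itgb3 it went from 2.58 to 2.52, and for Itga4 from 1.34 to 1.26. With the share held, Itgae was at 10.9 to 14 CPM untreated and 24.9 to 31.2 CPM after DSS, still apart. Itgav was at 133 to 179.8 and 143 to 179.9 CPM, overlapping.

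Within the Treg-like cells, the cluster led by Il1rl1, which encodes the IL-33 receptor, and Klrg1 had Itgav at 345, 322, 296 and 344 CPM untreated and 452, 520.2, 534 and 478 CPM after DSS. All its DSS values were above its untreated ones. The cluster led by Foxp3 and Il10 had Itgav at 317 to 419 CPM untreated and 358 to 392 CPM after DSS, in overlapping ranges. The difference between the clusters was not tested. Itgb8 was at 68.7 ± 8.35 CPM untreated and 108 ± 15 CPM after DSS (SD, n = 4) in the Il1rl1 Klrg1 cluster, and at 38.4 ± 4.94 and 54 ± 18.2 CPM in the Foxp3 Il10 cluster. Itgae was at 69.3 ± 23.5 and 148 ± 14.1 CPM in the first and 36.2 ± 12.6 and 102 ± 17 CPM in the second. Itgb3 was at 28.8 ± 13 and 53.7 ± 4.98 CPM in the first and 26.3 ± 10.9 and 63.7 ± 14 CPM in the second.

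**Figure D3:**
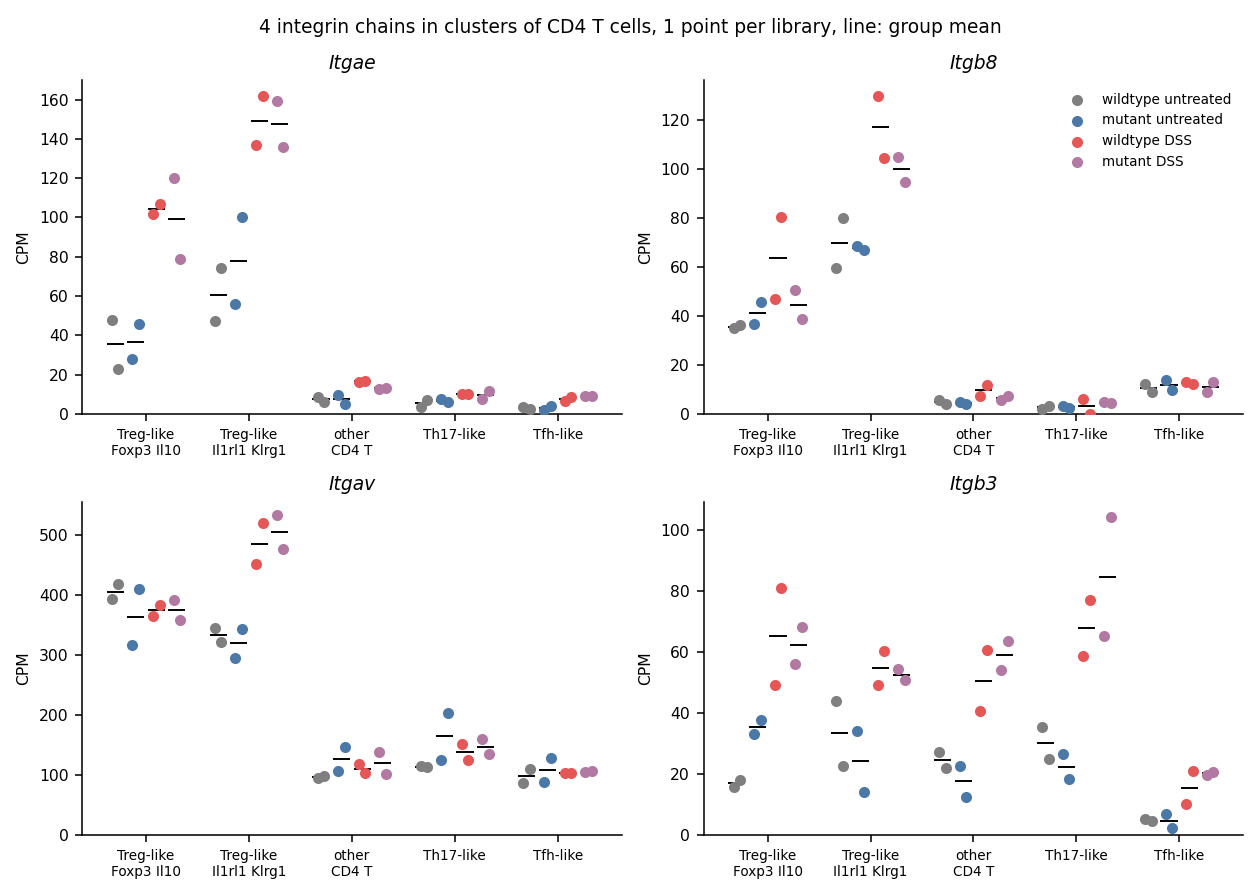
CPM of Itgae, Itgb8, Itgav and Itgb3 (y axes from 0) in the 2 Treg-like clusters, in all other CD4 T cells and, within these, in Th17-like and Tfh-like cells, with 1 point per library and a line at the mean of each group of 2. Itgae and Itgb8 are high in the Treg-like clusters, Itgav is apart between treatments in the Il1rl1 Klrg1 cluster, and Itgb3 is higher after DSS in all 5 populations shown.

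Treg-like barcodes outside the authors' cell list gave like levels. Itgae stood there at 48.1 to 67.3 CPM untreated and 113 to 137 CPM after DSS, Itgb8 at 39.96 to 52.5 CPM untreated and 75.9 to 105 CPM after DSS and Itgb3 at 22.4 to 30.5 CPM untreated and 48.5 to 69.4 CPM after DSS. Itga4 stood at 185 to 227 CPM untreated and 268 to 274 CPM after DSS and Itgav at 342 to 399.8 CPM untreated and 414 to 495 CPM after DSS. These 5 of the 9 had every DSS library above every untreated one, as did 14.3% of all genes tested there. These are other cells of the same 8 libraries, so they are not further replicates.

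The share of cells with an Itgae UMI was compared after each cell was thinned to 1000 UMIs. In Treg-like cells it was 4.3% ± 1.31 untreated and 11.4% ± 1.05 after DSS (SD, n = 4), and 10.6% ± 2.29 and 25% ± 1.1 without thinning. Fibroblast-like barcodes, which should lack Itgae, had thinned shares of 0.154% ± 0.13 and 0.0899% ± 0.106, at a median depth of 4830 UMIs against 2554 in Treg-like cells. In the other CD4 T cells the thinned Itgae shares were 0.681% ± 0.27 and 0.947% ± 0.135. The thinned Itgb8 share in Treg-like cells was 5.21% ± 0.75 and 7.16% ± 0.924, against 0.11% ± 0.127 and 0.113% ± 0.132 in plasma cell-like barcodes. The thinned Itgb3 share was 2.0% ± 0.81 and 5.44% ± 1.35 in Treg-like cells and 2.16% ± 0.82 and 5.64% ± 1.25 in the other CD4 T cells. It was 0.525% ± 0.118 and 1.25% ± 0.345 in plasma cell-like barcodes and 2.23% ± 0.553 and 2.62% ± 0.608 in fibroblast-like ones. The plasma cell-like shares, on 1 to 8 barcodes with an Itgb3 UMI per library, were also apart between treatments at 1000 UMIs but overlapped at 1500 UMIs (1.3% ± 0.852 and 1.03% ± 0.248), the untreated Treg-like shares overlapped the fibroblast-like ones, and neither class is known to lack Itgb3, so these shares have no clean background and the untreated ones are not read as expression. Without thinning the Itgb3 share was 6.59% ± 1.62 and 15.1% ± 2.58 in Treg-like cells and 6.23% ± 0.814 and 8.21% ± 0.543 in plasma cell-like barcodes, at a median depth of 7994 UMIs. The thinning left out 119 Treg-like and 477 other CD4 T cells.

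Chains whose proteins pair were compared in single cells at the same thinned depth, as a description. Among CD4 T cells with an Itgae UMI, 18 to 130 per library, 25.8% ± 4.04 had an Itgb7 UMI, against 17.8% ± 2.2 of the cells without (SD, n = 8), higher in 8 of 8 libraries. Within Treg-like cells the values were 29.4% ± 4.45 and 25.4% ± 3.46, higher in 5 of 8. The first rests on 6 to 17 Treg-like cells with an Itgae UMI per untreated library and 73 to 105 per DSS library. Itgb7 was seen in 20.6% ± 2.22 of CD4 T cells with and 17.5% ± 2.27 without an Itga4 UMI, higher in 8 of 8, and in 6 of 8 in Treg-like cells (26.6% ± 4.8 and 25.3% ± 3.51). Itgb1 was seen in 4.68% ± 1.18 of CD4 T cells with and 4.67% ± 0.805 without an Itga4 UMI, higher in 4 of 8 (3 of 8 in Treg-like cells). For Itgav it was 5.01% ± 0.789 and 4.59% ± 0.696, higher in 6 of 8 (6 of 8 in Treg-like cells). Itgb8 was seen in 4.05% ± 1.99 of the CD4 T cells with an Itgav UMI and 1.29% ± 0.492 of the others, higher in 8 of 8 libraries. Within Treg-like cells this was 7.07% ± 3.21 and 5.71% ± 1.11, higher in 6 of 8. Itgb3 was seen in 3.04% ± 1.9 of CD4 T cells with and 4.0% ± 2.13 without an Itgav UMI, higher in 0 of 8, and in Treg-like cells in 3.56% ± 1.72 and 3.82% ± 2.49, higher in 3 of 8. Itgb2 was seen in 11.4% ± 3.16 of CD4 T cells with and 9.82% ± 1.34 without an Itgal UMI, higher in 6 of 8, and in Treg-like cells in 11.6% ± 4.46 and 11.6% ± 1.56, higher in 4 of 8.

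No difference between mutant and wildtype cells passed the test for these chains. Of the 9 chains, 0 were called between mutant and wildtype in untreated mice or after DSS, or for the difference between the DSS effects, in CD4 T cells, Treg-like cells or the other CD4 T cells, by edgeR or by DESeq2. By edgeR 0% of all genes were called in these comparisons. At an unadjusted p under 0.05 in CD4 T cells, 586 (5.3%), 193 (1.74%) and 430 (3.89%) of 11063 genes passed in the 3 comparisons, and 0, 1 and 0 of the 9 chains. That chain was Itgb8 after DSS, where mutant minus wildtype was -0.51 ± 0.15 (log2, unadjusted p = 0.00724 in edgeR, adjusted p = 1.0). The difference between the DSS effects was -0.12 ± 0.22 for Itgae, -0.31 ± 0.24 for Itgb8 and 0.47 ± 0.33 for Itgb3 (log2, mutant minus wildtype) in CD4 T cells.

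Across the 14 cell classes compared the chains had different patterns, given as a description. T cell barcodes off the authors' list, such as CD8 or gamma-delta T cells, were not among these classes. The word highest, here and below, refers to these 14 classes only. Itgae was highest in Treg-like cells (82.6 ± 39.99 CPM, SD over 8 libraries) and dendritic-like barcodes (78.1 ± 29.2), whose ranges of 36 to 133 and 43 to 131 CPM overlapped. The order turned between treatments: untreated, the dendritic-like libraries (66.5 to 131 CPM) lay above all Treg-like ones (36 to 61.8), and after DSS they lay below (43 to 87.4 against 100.2 to 133 CPM). CD103 marks a subset of gut dendritic cells as well as T cells. Proliferating-like T cells followed at 22.8 ± 11.4 CPM, and Itgae was at 7.97 ± 2.52 CPM in Th17-like and 5.67 ± 3.11 CPM in Tfh-like cells. In dendritic-like barcodes Itgae stood at 66.5, 101, 131 and 87.1 CPM untreated and 54, 55.1, 87.4 and 43 CPM after DSS, in overlapping ranges, with a ratio of means of 0.621. In 1 library this class held 47 barcodes, so it was not tested. Cd3e in dendritic-like barcodes was at 11 to 28.6% of its level in CD4 T cells, and Itgae at 112 to 989%.

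**Figure D4:**
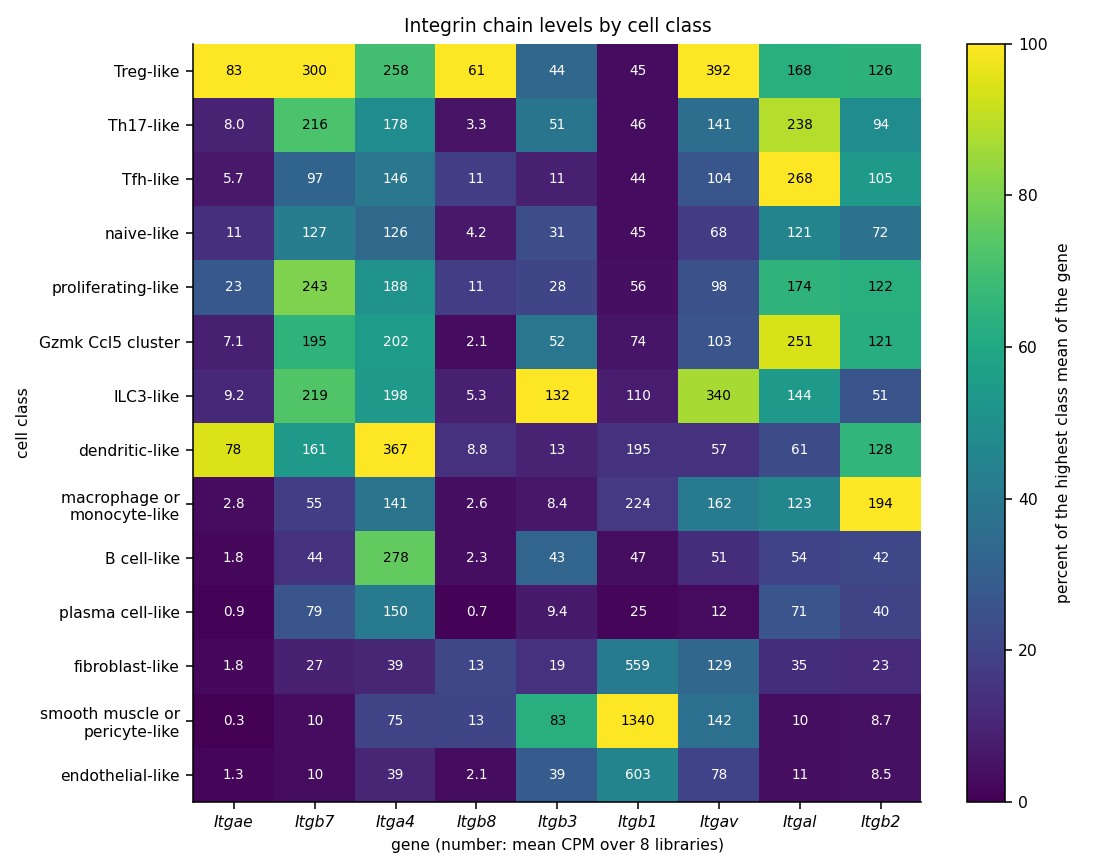
Mean CPM over 8 libraries of each chain (columns) in 14 cell classes (rows), written in the cells, with color giving the percent of the gene's highest class. By the mean over all 8 libraries Itgae, Itgb7, Itgb8 and Itgav are highest in Treg-like cells (untreated, Itgae is higher in dendritic-like barcodes), Itga4 in dendritic-like, Itgb3 in ILC3-like (untreated, it overlaps smooth muscle or pericyte-like), Itgb1 in smooth muscle or pericyte-like, Itgal in Tfh-like and Itgb2 in macrophage or monocyte-like cells.

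Itgb8 was highest in Treg-like cells, at 61.4 ± 16.4 CPM, whose lowest library (43.4 CPM) was above the highest of the next class, fibroblast-like (13 ± 2.94). Itgav was highest in Treg-like (392 ± 38.9) and ILC3-like cells (339.7 ± 59.8), which overlapped, and then in macrophage or monocyte-like barcodes (162 ± 23.8), which did not overlap these. Itgb7 was highest in Treg-like cells (300.2 ± 33.4), then proliferating-like (243 ± 15.5), ILC3-like (219 ± 50.3) and Th17-like cells (216 ± 43.2), each overlapping the next. Itga4 was highest in dendritic-like (367 ± 56.6) and B cell-like (278 ± 51.5) barcodes and then Treg-like cells (258 ± 42.7), also overlapping. Itgal was highest in Tfh-like cells (268 ± 34.7), the cluster led by Gzmk and Ccl5 (251 ± 42) and Th17-like cells (238 ± 34.9), again overlapping. Itgb2 was highest in macrophage or monocyte-like barcodes (194 ± 19.8), with no overlap with the next class, dendritic-like (128 ± 21.2). Itgb1 was highest in smooth muscle or pericyte-like barcodes (1339.7 ± 119.9), apart from endothelial-like (603 ± 25.8) and fibroblast-like ones (559 ± 87.3), and lower in Treg-like (44.6 ± 7.33) and Th17-like cells (46 ± 9.39). Itgb3 was highest in ILC3-like (132 ± 80.1) and smooth muscle or pericyte-like barcodes (83.2 ± 21.3), which overlapped untreated (53.5 to 112 and 71.6 to 89.3 CPM) and not after DSS (124 to 282 and 55 to 119.8 CPM). The values with ± are mean CPM and SD over the 8 libraries, untreated and DSS-treated together.

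Outside the CD4 T cells, 7 classes of barcodes off the list were compared. The average of the DSS effect over both genotypes was fitted first, but it includes the wildtype libraries by which Itgb3 was chosen. For Itgb3 it is therefore a description, and the mutant alone was tested in the same fit. That test was added after seeing the data, with no further alternatives run. Its p is no independent support, since results of all 8 libraries were known when the genes were chosen. By that test Itgb3 was called in 2 of the 7 classes, B cell-like and macrophage or monocyte-like barcodes. In B cell-like barcodes Itgb3 stood at 26.1, 21.2, 16.9 and 17.7 CPM untreated and 52.3, 83, 63.8 and 63.9 CPM after DSS. Every DSS library was above every untreated one. In the mutant Itgb3 rose there by 1.73 ± 0.25 (log2, edgeR adjusted p = 0.000109), with 1.59 ± 0.20 averaged over genotypes. Itga4 rose too (0.53 ± 0.16, 0.0396), so 2 of 7 chains tested were called in the mutant, where 7.43% of genes were. Averaged over genotypes Itga4 was not called there, and 1 of 7 chains was, where 13.8% of genes were.

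In macrophage or monocyte-like barcodes Itgb3 stood at 3.0 to 5.15 CPM untreated and 9.38 to 18.2 CPM after DSS and rose in the mutant (2.14 ± 0.36, edgeR adjusted p = 0.00927), with 1.59 ± 0.25 averaged over genotypes. Itgb8 stood in that class at 0.418 to 1.58 CPM untreated and 3.25 to 4.75 CPM after DSS on 66 UMIs in all and rose in the mutant (2.26 ± 0.60, 0.0406) and averaged over genotypes (1.81 ± 0.40, 0.0111). So 2 of 9 chains were called, where 8.82% of genes were in the mutant and 20.2% averaged. Itgb8 was at 4.48 to 21.1% of its CD4 T cell level in this class, and Cd3e at 3.97 to 13.2% of its own. The part of T cell RNA in the Itgb8 result was not tested. The averaged Itgb8 call was lost without untreated wildtype replicate 2 (0.051) or DSS-treated wildtype replicate 2 (0.0734), both edgeR adjusted p.

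In ILC3-like barcodes Itgb3 stood at 53.5 to 112 CPM untreated and 124 to 282 CPM after DSS (averaged log2 fold change 1.30 ± 0.26), and the mutant value of 1.06 ± 0.35 did not pass (edgeR adjusted p = 0.202). There 0 of 7 chains were called in the mutant by edgeR (1 at an unadjusted p under 0.05), where 0.341% of genes were, and 1 of 7 averaged over genotypes, where 1.8% were. In endothelial-like barcodes Itgb3 stood at 18.9 to 25 CPM untreated and 37.4 to 77.2 CPM after DSS (averaged 1.36 ± 0.23), and the mutant value of 1.53 ± 0.32 did not pass either (0.0567). There 0 of 7 chains were called in the mutant by edgeR (3 at an unadjusted p under 0.05), where 0.719% of genes were, and 1 of 7 averaged over genotypes, where 3.99% were. In fibroblast-like barcodes Itgb3 stood at 15.1 to 21.9 CPM untreated and 15.1 to 24.7 CPM after DSS (mutant 0.48 ± 0.20, edgeR adjusted p = 0.164). Averaged over genotypes 0 of 9 chains were called there by edgeR or DESeq2 (2 of 9 at an unadjusted p under 0.05, as 33.6% of genes), where 16.7% of genes were called by edgeR. In the mutant alone Itgal rose there (0.98 ± 0.22, edgeR adjusted p = 0.039), 1 of 9, where 5.38% of genes were called, and it stood at 22.7 to 45.2 CPM untreated and 24.6 to 55.3 CPM after DSS, in overlapping ranges. Cd3e was at 6.15 to 12.2% and Itgal at 10.9 to 21.7% of their CD4 T cell levels in fibroblast-like barcodes, and the part of T cell RNA in this result was not tested. In smooth muscle or pericyte-like barcodes Itgb3 stood at 71.6 to 89.3 CPM untreated and 55 to 119.8 CPM after DSS (mutant -0.05 ± 0.32, edgeR adjusted p = 0.97). Cd3e, a T cell gene, was at 4.95 to 11.7% of its CD4 T cell level in B cell-like, 3.97 to 13.2% in macrophage or monocyte-like, 10.5 to 28.8% in ILC3-like and 0.863 to 5.46% in endothelial-like barcodes. Itgb3 was at 70.05 to 128%, 12.5 to 33.4%, 197 to 769% and 68.6 to 139% of its own CD4 T cell level in the same 4 classes.

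**Figure D5:**
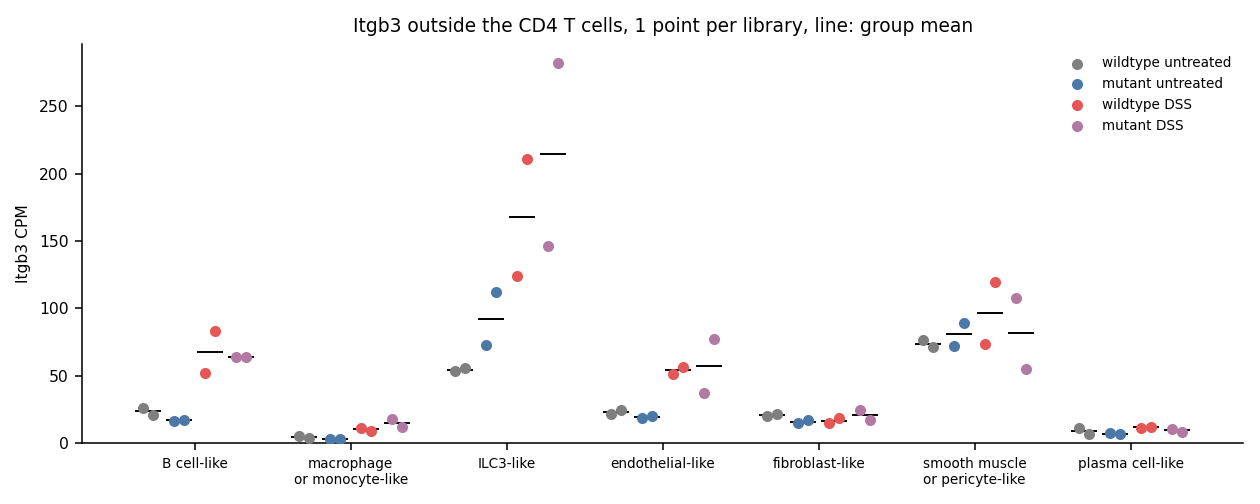
CPM of Itgb3 (y axis from 0) in 7 cell classes off the authors' list, with 1 point per library and a line at the mean of each group of 2. All DSS libraries lie above all untreated ones in B cell-like, macrophage or monocyte-like, ILC3-like and endothelial-like barcodes, and ranges overlap in the other 3 classes.

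Of the 9 chains, 2 were called lower after DSS in these classes, averaged over genotypes, and both calls were lost in the mutant alone. Itga4 stood at 102, 107, 69.3 and 157 CPM untreated and 48.6, 42.8, 44.1 and 31.2 CPM after DSS in smooth muscle or pericyte-like barcodes, 85 to 236 per library. It fell, with a log2 fold change of -1.44 ± 0.26 (SE; adjusted p = 0.0147 by edgeR), 1 of 4 chains tested, where 3.6% of genes were called. The call was lost without DSS-treated wildtype replicate 2 (0.115) or mutant replicate 2 (0.0845), both edgeR adjusted p, and in the mutant alone it was -1.59 ± 0.37 (0.0803), where 0.602% of genes were called. Itgb7 stood at 109, 85.1, 94.2 and 102 CPM untreated and 56.2, 67.2, 75.4 and 39.6 CPM after DSS in plasma cell-like barcodes, with no overlap. It fell, with a log2 fold change of -0.68 ± 0.16 (SE; adjusted p = 0.0298 by edgeR), 1 of 7 chains, where 6.87% of genes were called. That call was lost without each of 6 libraries in turn, all 4 untreated and both DSS-treated wildtype libraries. The log2 fold changes then were -0.61 to -0.75. In the mutant alone the log2 fold change was -0.80 ± 0.22 (edgeR adjusted p = 0.115), where 1% of genes were called. Cd3e was at 1.09 to 2.78% of its CD4 T cell level in plasma cell-like barcodes and Itgb7 at 21.2 to 55.1%.

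Other genes of integrin biology were taken from 5 lists. Of 17 other integrin chains, 9 were tested in mutant CD4 T cells and 0 were called (DSS against untreated, edgeR, and 0 in the wildtype). Their median log2 fold change was 0.78, against 0.01 over all genes tested, and 7 of the 9 had a positive one. The macrophage or monocyte marker sums given below for Vcam1 stand beside this median too, and their part in it was not tested. Counts in the 5 lists stand against 5.05% of all genes called in mutant CD4 T cells, 2.71% in Treg-like cells and 1.21% in the other CD4 T cells. In CD4 T cells 559 genes were called in the mutant and 23 in the wildtype. The calls named in the 5 lists are all from the mutant, whose untreated libraries had raised heat shock genes. The part of heat shock in these calls was not tested. Itga6, a laminin receptor chain, was at 44.6 to 55.4 CPM untreated and 45.1 to 60.6 CPM after DSS (0.01 ± 0.16, edgeR adjusted p = 0.979), and Itga1, a collagen receptor chain, at 11.3 to 22.9 CPM untreated and 6.12 to 15 CPM after DSS (-1.02 ± 0.38, 0.128). Of 19 ligand genes 8 were tested and 1 rose (where 5.05% of all genes were called), Vcam1, the ligand of alpha 4 beta 1 (2.64 ± 0.57, 0.0392), at 4.67 to 11 CPM untreated and 17.3 to 66.8 CPM after DSS. Vcam1 was also among the 10 leading genes of a macrophage or monocyte-like cluster, and the 11 macrophage or monocyte markers summed to 223 to 419 CPM untreated and 385 to 678 CPM after DSS in these CD4 T cells, 2 of the 11 higher in every DSS library. Their part in the result was not tested. Of 24 activation and adaptor genes 21 were tested and 1 fell, Rasgrp2, an activator of Rap1 (-0.63 ± 0.12, 0.0312), at 45.4 to 63.7 CPM untreated and 38.2 to 40.6 CPM after DSS. In Treg-like cells Fermt3, which encodes kindlin-3, an integrin activator of blood cells, was the 1 of 20 adaptor genes called in the mutant (where 2.71% of all genes were) and rose (1.03 ± 0.24, 0.0356), at 50.03 to 60.4 CPM untreated and 76.6 to 129 CPM after DSS. In Treg-like cells the platelet markers summed to 1.41 to 6.25 CPM untreated and 5.92 to 21.5 CPM after DSS, with 0 of 6 higher in every DSS library and Gp9 and Gp1bb at 0. The macrophage or monocyte markers summed to 504 to 742 and 709.6 to 1039 CPM (2 of 11 higher) and the neutrophil markers to 69.9 to 135 and 129 to 199.9 CPM (1 of 6 higher). Their part in the Fermt3 result was not tested.

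Of 18 tissue residency and gut homing genes 15 were tested in mutant CD4 T cells and 1 fell (where 5.05% of all genes were called), Klf2, a transcription factor of recirculating T cells (-0.64 ± 0.12, edgeR adjusted p = 0.0287), at 195 to 247 CPM untreated and 146 to 160.2 CPM after DSS. Cd69 and Runx3, linked to tissue residency, did not pass (-0.32 ± 0.22, 0.383, and -0.05 ± 0.11, 0.794). In Treg-like cells Ccr9, a gut homing receptor, was the 1 of 15 called (where 2.71% of all genes were) and rose (2.01 ± 0.47, 0.0358), at 9.84 to 27.1 CPM untreated and 25.2 to 81.8 CPM after DSS, in overlapping ranges. Of 15 genes that handle TGF-beta 13 were tested and 1 rose in mutant CD4 T cells, Nrros, which holds latent TGF-beta on myeloid cells (1.21 ± 0.24, 0.0312), at 4.61 to 5.43 CPM untreated and 10.1 to 14.2 CPM after DSS. The macrophage or monocyte marker sums given for Vcam1 stand beside this result too, and their part in it was not tested. In the CD4 T cells outside the Treg-like clusters Lrrc32, which encodes GARP, the protein that holds latent TGF-beta on Treg cells, was the 1 of 13 called (where 1.21% of all genes were) and rose (1.20 ± 0.22, 0.0397), at 5.23 to 6.84 CPM untreated and 11.8 to 14.9 CPM after DSS. Tgfb1 itself was at 343 to 363 CPM untreated and 289 to 398 CPM after DSS in CD4 T cells (-0.12 ± 0.15, 0.623), and Smad7, a feedback inhibitor of TGF-beta signalling, at 435 to 526 CPM untreated and 291 to 412 CPM after DSS (-0.49 ± 0.15, 0.0784). In the wildtype 0 genes of the 5 lists were called by edgeR in CD4 T cells. The raised heat shock genes of the untreated mutant libraries stand beside the mutant calls given here too.

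The 5 genes whose log2(CPM + 1) followed Itgae most closely over the 8 CD4 T cell sums, among 7000 genes with a mean of at least 10 CPM, were Mtmr3 (Pearson r = 0.996), Tnfrsf9 (0.994), Crlf3 (0.993), Map4k2 (0.989) and Laptm4b (0.989). Tnfrsf9, which encodes the costimulatory receptor 4-1BB, had a mean of 115 CPM untreated and 294 CPM after DSS. Among the chains r was 0.968 for Itgb8, 0.948 for Itgb3, 0.935 for Itga4, 0.847 for Itgav, 0.662 for Itgal, 0.397 for Itgb7, -0.217 for Itgb1 and -0.25 for Itgb2. The 8 points fall into untreated and DSS-treated libraries and share their Treg-like fraction and depth, so these values only describe likeness. By Spearman's rho 5 other genes came first, each with a rho of 1.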

How the data were processed

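The authors deposited UMI counts per gene and barcode for 8 libraries, a list of cells and the order of the gene rows. Per the submitters' processing notes, Cell Ranger 3.1.0, Seurat 4.0.1 and mm10 were used, with no role or order given. The tools run here were scanpy 1.11.5 with leidenalg 0.10.2 in Python 3.11.15, and edgeR 4.0.16 and DESeq2 1.42.0 in R 4.3.3. Barcodes with at least 400 genes and under 20% mitochondrial UMIs were kept (96721 of 100673), clustered at resolution 1 without integrin genes, and named from marker lists. Names and shares are rebuilt and may differ from the study's. Scrublet marked 0 barcodes, so it did not work and no doublets were removed. Counts were summed per library and population and tested with edgeR's quasi-likelihood test (TMM, filterByExpr, all 8 libraries, Benjamini-Hochberg over all genes, called under 0.05). That test gives no SE, so each SE here is the absolute log2 fold change divided by the square root of its F statistic. On simulated data 72 of 100 genes with 2-fold changes were recovered in CD4 T cells (10963 genes) and 54 of 100 in Treg-like cells (8154 genes). Where nothing says libraries came from separate animals, p-values measure only the spread between libraries.

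Members and lists were chosen with earlier results of these data known. All 9 members are named. From each list the genes called are named, and otherwise the 2 with the highest mean CPM. Tgfb1, Smad7, Cd69 and Runx3 were named after their values were seen. Alternatives were DESeq2, RLE scaling, no filter, fewer libraries, other cluster resolutions, a Foxp3 gate, barcodes off the list and each library left out. Robust edgeR, and leaving out the heat shock cluster or the 5% of barcodes with the most UMIs, and testing the mutant alone in the classes off the list, were chosen after seeing the data.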

Additional observations from a re-analysis of the deposited data

Results flagged for a closer look

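Itga4 had every DSS library below every untreated one in smooth muscle or pericyte-like barcodes, with a ratio of means of 0.383, and every DSS library above every untreated one in 4 others of the 14 classes in the plot of levels by class, the Treg-like CD4 T cells, the cluster led by Gzmk and Ccl5, B cell-like and endothelial-like barcodes. Treg-like, Th17-like and proliferating-like T barcodes off the authors' list, which that plot does not show, also had it above. In Treg-like CD4 T cells 11% of all genes tested were above in this way, and 14.3% in Treg-like barcodes off the list. The share of all genes with opposite directions across classes is not given, so nothing is read from this pattern. These opposite directions drew attention to Itga4, and the difference between the classes was not tested.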

How the results depend on the processing

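Of 2991 fold changes of the chains under alternatives, 0 reversed a called direction, and 197 changed sign without being called in either setting. DESeq2 gave no adjusted p for 17 more. No paired analysis was run, because no label says which libraries of different groups form pairs. Title numbers of wildtype and mutant libraries lie close together, but none is shared between groups and what they mark is not stated. The counts that follow stand here without the share of all genes called in each alternative, so nothing is read from their changes. The number of chains called after DSS in wildtype Treg-like cells was 2, with 1 by DESeq2 and 4 without a filter on low counts. In mutant Treg-like cells it was 1, with 2 without the filter and 2 with a Foxp3 UMI as the gate. In wildtype CD4 T cells outside the Treg-like clusters it was 0, with 1 by DESeq2, 2 without the filter and 1 with the Foxp3 gate. In mutant cells outside them it was 1, with 2 without the filter, 0 with only the libraries compared and 2 with the Foxp3 gate. For ILC3-like barcodes it was 1, with 0 by DESeq2. Without the filter it went from 1 to 2 in B cell-like and plasma cell-like and from 1 to 3 in endothelial-like barcodes. With the DSS effect of the mutant only it went from 1 to 0 in ILC3-like, plasma cell-like, smooth muscle or pericyte-like and endothelial-like barcodes, from 1 to 2 in B cell-like and from 0 to 1 in fibroblast-like ones. The cause was not tested. Leaving out each library in turn gave 0 to 3 chains in CD4 T cells of either genotype, 0 to 3 in wildtype and 0 to 2 in mutant Treg-like cells, and 0 to 1 in mutant cells outside them. In the averaged comparisons it gave 0 to 1 in ILC3-like, plasma cell-like and smooth muscle or pericyte-like, 1 to 3 in macrophage or monocyte-like, and 0 to 2 in fibroblast-like and endothelial-like barcodes. The genotype comparisons gave 0 chains in all alternatives run. The planned fit without stressed clusters had no cluster to leave out. Depth limits what can be seen of Itgae and Itgb8, at 586 and 331 UMIs in all CD4 T cells outside the Treg-like clusters.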
